A study of Mus musculus with 7 samples.

Results

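HDAC1 binding at 10 genes of the Notch pathway was described in embryonic mouse limb buds. The genes were the receptors Notch1 and Notch2, the ligands Jag1, Jag2 and Dll1, the glycosyltransferase Lfng, the DNA-binding factor Rbpj and the target genes Hes1, Hey1 and Hey2. HDAC1 peaks were assigned to a gene when they overlapped its body, with 10 kb added on each side, by at least 1 bp. This gave 21 of the 15347 peaks in the deposited list, at 9 of the 10 genes.

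Peaks came from ChIP-seq, which sequences the DNA that an antibody brings down from fixed chromatin, with an antibody against the histone deacetylase HDAC1. There were 4 samples with the HDAC1 antibody and 3 inputs, all of them wildtype Swiss Webster embryos at E11.5 with 40 to 44 somites. Each sample was a pool of forelimb and hindlimb buds that the labels trace to 3 litters, with no mutant and no treated group. The authors deposited 1 list of peaks for the 4 replicates. A peak thus has no value in any single sample, no read number and no replicate error, and neither the depth behind it nor its cell type within the pooled buds is known. Expression was not measured in these samples, so the labelled tissue could not be checked against marker genes, and every value below is a description without a test.

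In Notch signaling, a membrane-bound ligand of the Jagged or Delta-like family on a cell binds a Notch receptor on its neighbour, and proteolytic cleavage releases the receptor's intracellular domain into the nucleus. There it joins RBPJ and Mastermind proteins on DNA and activates genes of the Hes and Hey families, which encode bHLH repressors. Without the Notch intracellular domain, RBPJ is bound by corepressors, several of which work with histone deacetylases. Fringe enzymes such as LFNG add sugars to the receptor and so change which ligands activate it. In the limb bud the pathway is known for the role of Jag2 in the apical ectodermal ridge, the signaling epithelium at the limb's edge.

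The sequences that go with the main contrasts are shown first, with capitals marking matches to the RBPJ motif GTGNGAA or to its shorter core TGGGAA on either strand. GTGGGAA contains TGGGAA, so such a site counts for both. The promoters run from 250 bases before to 50 bases after a RefSeq start site (GRCm38.p6), in the direction of transcription. An entry was found for 8 of the 10 genes, not for Hes1 and Hey1. Hey2 is shown because no HDAC1 peak was listed at it, Lfng because its promoter peak stood near the end of the ranked list, and Rbpj and Jag1 as promoters wholly under peaks at positions 1071 and 1753.
Hey2 promoter, chr10:30842734-30843033, minus strand: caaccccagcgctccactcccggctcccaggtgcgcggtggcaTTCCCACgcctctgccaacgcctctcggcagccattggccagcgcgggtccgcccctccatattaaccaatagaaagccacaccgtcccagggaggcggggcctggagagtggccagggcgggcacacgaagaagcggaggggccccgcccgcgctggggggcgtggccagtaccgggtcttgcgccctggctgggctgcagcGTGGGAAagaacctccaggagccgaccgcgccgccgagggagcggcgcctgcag
Lfng promoter, chr5:140607091-140607390, plus strand: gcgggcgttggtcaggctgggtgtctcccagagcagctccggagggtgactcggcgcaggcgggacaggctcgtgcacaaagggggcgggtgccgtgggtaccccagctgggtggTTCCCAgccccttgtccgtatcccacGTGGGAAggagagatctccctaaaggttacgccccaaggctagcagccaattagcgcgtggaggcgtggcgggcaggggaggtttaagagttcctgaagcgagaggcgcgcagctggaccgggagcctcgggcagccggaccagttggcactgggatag
Rbpj promoter, chr5:53590096-53590395, plus strand: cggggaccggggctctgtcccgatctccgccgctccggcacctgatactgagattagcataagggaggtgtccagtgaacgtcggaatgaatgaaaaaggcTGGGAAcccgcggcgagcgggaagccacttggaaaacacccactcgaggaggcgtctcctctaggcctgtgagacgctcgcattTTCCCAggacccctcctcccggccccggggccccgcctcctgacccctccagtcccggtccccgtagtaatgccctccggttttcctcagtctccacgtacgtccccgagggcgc
Jag1 promoter, chr2:137116471-137116770, minus strand: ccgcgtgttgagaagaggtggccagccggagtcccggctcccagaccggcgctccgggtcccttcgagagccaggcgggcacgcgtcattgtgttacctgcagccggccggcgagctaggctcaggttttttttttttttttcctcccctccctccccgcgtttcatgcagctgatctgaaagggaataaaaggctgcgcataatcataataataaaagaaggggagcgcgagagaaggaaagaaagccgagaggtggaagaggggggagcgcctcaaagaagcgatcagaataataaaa
Short peaks away from the start sites are shown whole, on the plus strand of GRCm38, as examples of low-ranked peaks at genes whose leading peak lay at the promoter.
Notch1 intronic peak, chr2:26494000-26494299: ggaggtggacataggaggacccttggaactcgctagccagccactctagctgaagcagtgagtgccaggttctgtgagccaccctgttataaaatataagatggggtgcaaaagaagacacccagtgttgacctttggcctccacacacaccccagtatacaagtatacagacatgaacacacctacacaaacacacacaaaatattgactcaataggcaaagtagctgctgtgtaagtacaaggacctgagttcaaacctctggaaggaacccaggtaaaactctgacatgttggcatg
Notch2 intronic peak, chr3:98061150-98061349: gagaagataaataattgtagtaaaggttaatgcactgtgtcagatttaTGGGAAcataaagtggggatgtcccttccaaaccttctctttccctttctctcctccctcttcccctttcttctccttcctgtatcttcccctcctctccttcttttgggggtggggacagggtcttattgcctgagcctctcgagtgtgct
Dll1 upstream peak, chr17:15380350-15380599: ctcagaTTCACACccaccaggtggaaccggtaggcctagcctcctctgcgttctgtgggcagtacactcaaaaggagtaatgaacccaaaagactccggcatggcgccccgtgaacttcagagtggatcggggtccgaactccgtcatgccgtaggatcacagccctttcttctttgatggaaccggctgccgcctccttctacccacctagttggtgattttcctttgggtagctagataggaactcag

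Of the 10 Notch pathway genes, 9 had at least 1 HDAC1 peak in the window, where 53.8% of all 21938 protein-coding genes did. At least 2 peaks were listed at 8 of them, against 24.6% of protein-coding genes, and at least 3 peaks at 3 of them (Notch2, Dll1 and Hes1), against 9.75%. Notch2 alone had 4 peaks, against 4.11% of protein-coding genes with at least 4. Windows of long genes catch more peaks. The share with a peak was 43.3% among protein-coding genes with windows up to the median of 37425 bp and 64.2% among those with longer windows, and 5 of the 10 Notch genes had longer windows. A start-site window was set from 2 kb before to 1 kb after each protein-coding transcription start site (TSS). A peak reached into it at 9 of the 10 genes, against 43.9% of protein-coding genes, and at 8 genes a coding TSS lay under a peak, against 32.7%. Since the genes were not drawn at random, none of these shares is evidence of an excess.

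The 21 peaks had a median length of 650 bp, with a range from 200 to 4800 bp, and the median of the whole list was 450 bp. The list is in the authors' rank order, in which position 1 is the first. The Notch gene peaks ran from position 97 to position 14728 with a median of 5061, and 14 of them stood among the first 7673 positions, the upper part of the list. A peak of this upper part was present at 8 of the 10 genes, against 38.3% of protein-coding genes. A peak of at least 2000 bp was present at 4 genes (Notch1, Jag1, Jag2 and Hes1), against 2.77%.

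**Figure D1:**
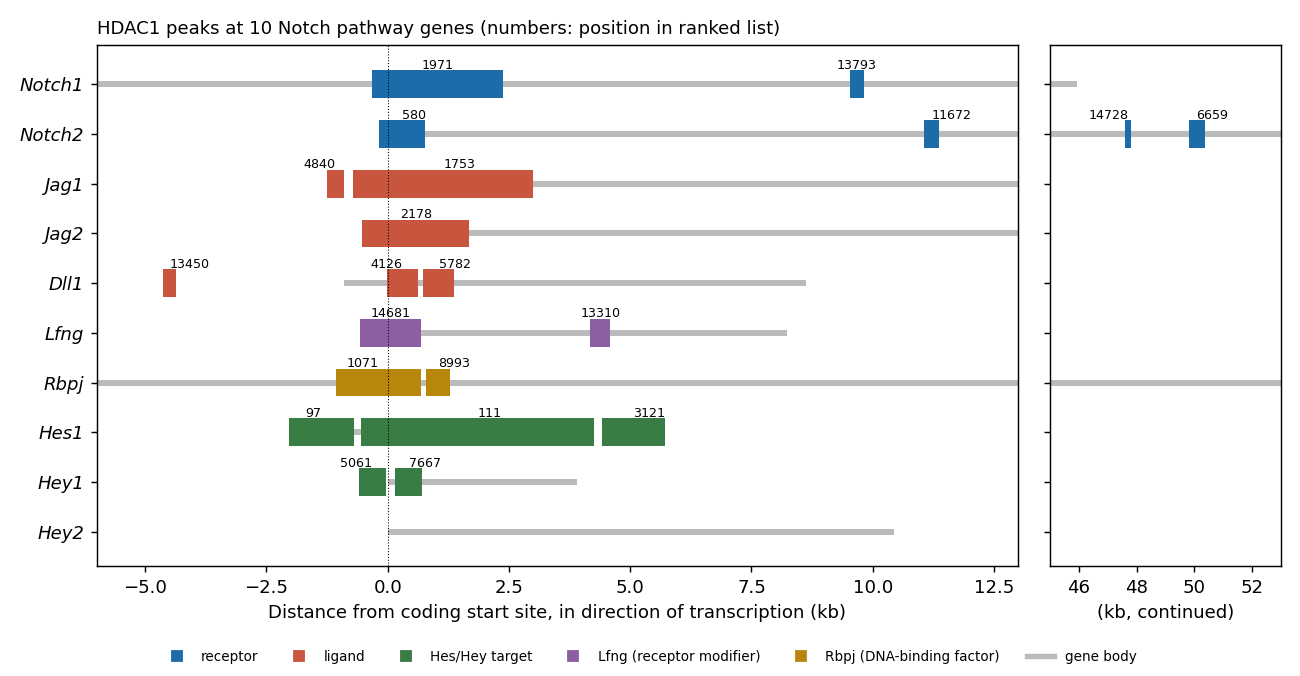
HDAC1 peaks (coloured boxes, by role of the gene) at 10 Notch pathway genes, drawn to scale against the distance from a protein-coding start site in kb, in the direction of transcription. Grey lines are gene bodies and the right panel continues the axis for the distant peaks of Notch2. Numbers give each peak's position in the ranked list of 15347 peaks. Boxes crowd around the start site at 9 genes, and Hey2 has none.

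The receptors had a peak at the start site and lower-ranked, shorter peaks in introns. Notch1, the first receptor of the family, lies on the minus strand of chromosome 2 from 26457903 to 26516663 (mm10). Its leading peak was 2700 bp long (26501450 to 26504149, position 1971) and covered the coding TSS at 26503822. Of its bases, 5.19% were coding and 85% lay within the gene body outside exons. The annotated gene body reaches upstream of the coding TSS, so the 85% also holds bases upstream of that TSS. Only 1.60% of the 500 peaks nearest to this peak in rank were as long. The second Notch1 peak was 300 bp long (26494000 to 26494299, position 13793), 9523 bp downstream of the coding TSS and wholly intronic. These values put the Notch1 promoter peak among the longer of its rank and the intronic peak near the end of the list.

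Notch2, whose product is the related receptor, lies on the plus strand of chromosome 3 from 98013527 to 98150361 and had 4 peaks, the most of the 10 genes. At its start site the peak was 950 bp long (98013350 to 98014299), stood at position 580 and was shorter than the median of 1400 bp of its 500 neighbours in rank. Compared with Notch1, the Notch2 promoter peak was the shorter of the pair and the higher in rank. The other Notch2 peaks were wholly intronic, at 11.1, 47.6 and 49.8 kb from the start site. They were 300, 200 and 550 bp long and stood at positions 11672, 14728 and 6659. At both receptors the intronic peaks thus had lower ranks than the peak at the start site.

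The ligand genes had most of their peaks at the promoter. Jag1, a Jagged ligand, lies on the minus strand of chromosome 2 from 137081456 to 137116644. A peak of 3700 bp (137113650 to 137117349, position 1753) covered its TSS, and 0.60% of the 500 peaks nearest in rank were as long. A second peak of 350 bp (137117550 to 137117899, position 4840) lay 906 bp upstream of the TSS, separated from the first by a gap of 200 bp. Jag2, the ligand of the apical ectodermal ridge, lies on the minus strand of chromosome 12 from 112907819 to 112929776 and had a single peak. That peak was 2200 bp long (112928100 to 112930299, position 2178), covered the TSS and had 72.5% GC, with 19% of its bases coding and 13.3% in exons outside the coding sequence. Jag1 and Jag2 resembled Notch1 in length and rank of the leading peak, at positions between 1753 and 2178.

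Dll1, a Delta-like ligand, lies on the minus strand of chromosome 17 from 15367354 to 15376872. Its coding start site was under a peak of 650 bp (15375350 to 15375999, position 4126), of which 96.5% was exon outside the coding sequence. A further peak of 650 bp lay 727 bp downstream (15374600 to 15375249, position 5782), over 53.5% coding sequence, and held the start of the long noncoding RNA A930024N18Rik on the other strand. The pair was separated by a gap of 100 bp. The upstream peak printed above was 250 bp long, 4374 bp from the coding TSS and at position 13450. RefSeq has another Dll1 promoter upstream, from 15376883 to 15377182, and no part of it lay under a peak. The leading peak of Dll1 was thus shorter than those of both Jagged genes and lower in the list.

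Lfng encodes the Fringe enzyme that modifies the Notch receptor, and its gene lies on the plus strand of chromosome 5 from 140607320 to 140615545. A peak of 1250 bp covered its start site (140606750 to 140607999) but stood at position 14681 of the list. Among the last 1000 peaks, whose median length was 200 bp, it was the longest, and no other of them reached 1250 bp. The second Lfng peak was 400 bp long (140611500 to 140611899, position 13310) and lay 4180 bp downstream of the TSS, with 87.8% of its bases intronic. Lfng was the sole gene among the 9 with peaks that had none in the upper part. The longer of its peaks had the lower rank.

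Rbpj encodes the factor that carries the pathway to DNA, and its gene lies on the plus strand of chromosome 5 from 53466152 to 53657362, with 5 protein-coding start sites in the annotation. A peak of 1750 bp (53589150 to 53590899, position 1071) covered 3 of them, and a peak of 500 bp (53591000 to 53591499, position 8993) lay 100 bp beyond it. Another of the start sites fell in the gap between these peaks. No peak was listed at the remaining start site, which lies farther upstream in the gene. The leading Rbpj peak was surpassed in rank only by those of Notch2 and Hes1 among the 10 genes.

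Among the 10 genes, the targets held both the most and the fewest bases under HDAC1 peaks. Hes1, a bHLH repressor that Notch activates, lies on the plus strand of chromosome 16 from 30064384 to 30067796 and had the leading peaks of the group. The first was 1350 bp long (30063300 to 30064649, position 97) and ended 691 bp before the coding TSS. A second, of 4800 bp (30064800 to 30069599, position 111), covered the coding TSS and all 846 coding bases of the gene, and only 47 peaks of the list (0.306%) were as long. The third was 1300 bp long (30069750 to 30071049, position 3121) and lay beyond the 3' end of the gene. Gaps of 150 bp separated these peaks, which together covered 7450 bp, or 31.8% of the window. Only 0.351% of protein-coding genes had as many bases under peaks, and 0.697% had a peak among the first 111.

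Hey1, a related repressor, lies on the minus strand of chromosome 3 from 8663359 to 8667256. It had 2 peaks of 550 bp, from 8667300 to 8667849 at position 5061 and from 8666550 to 8667099 at position 7667. The former lay 44 bp upstream and the latter 157 bp downstream of the TSS, so that the start site itself fell in the gap of 200 bp between them. Hey2, also on the minus strand (chromosome 10, 30832359 to 30842801), had no peak in its window. The nearest was 28.9 kb past the 3' end of the gene, 550 bp long (30802900 to 30803449, position 4468) and within 1 kb of a start site of Ncoa7. Hes1, Hey1 and Hey2 thus had 3, 2 and 0 peaks and 7450, 1100 and 0 bp under peaks. A gene without a listed peak can still be bound below the authors' threshold.

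**Figure D2:**
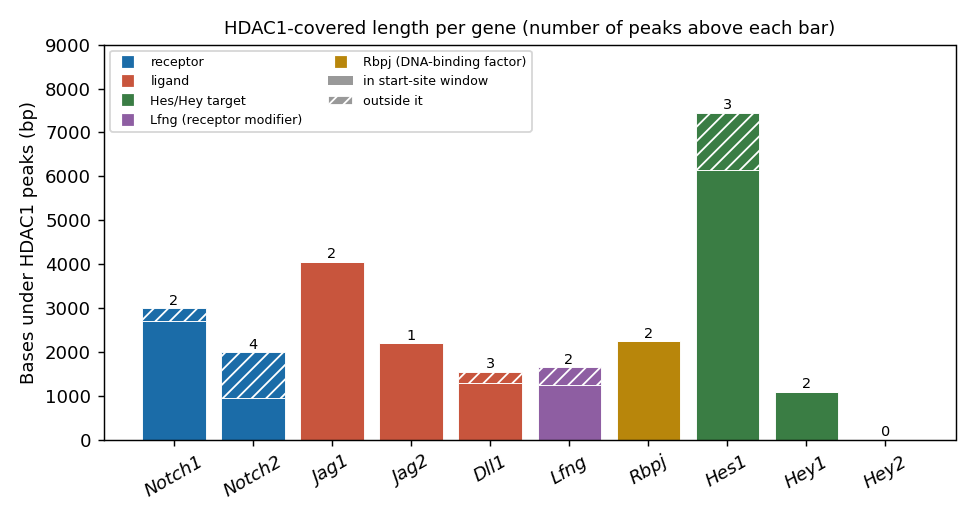
Bases under HDAC1 peaks (bp) at each of the 10 genes, with the number of peaks above each bar and bars coloured by role. Plain parts are peaks that reach into the window from 2 kb before to 1 kb after a coding start site, and hatched parts are the others. The bars run from 0 at Hey2 to 7450 bp at Hes1, so that the Hes/Hey genes hold both extremes.

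Side by side, the 2 receptors, 3 ligands and 3 Hes/Hey targets had similar numbers of peaks (6, 6 and 5) over windows of very different size. Per 100 kb of window they had 2.55, 4.74 and 6.43 peaks. Median peak lengths were 425 bp at the receptors, 650 bp at the ligands and 1300 bp at the targets, and median positions in the list were 9165.5, 4483 and 3121. Without Hes1 the only target peaks were the 2 of Hey1, both 550 bp long, at positions 5061 and 7667. Both were shorter than the ligand median and stood lower in the list. Mean covered bases per gene were 2500, 2600 and 2850 bp, and the mean of the targets was 550 bp without Hes1. These orders rest on 2 or 3 genes per group, whose peaks overlapped in length and rank between the groups, and Hes1 gave 3 of the 5 target peaks. Outside the start-site windows lay 4 of 6 receptor peaks, 1 of 6 ligand peaks and 1 of 5 target peaks. In the whole list, 70.1% of peaks reached into a start-site window of a protein-coding gene. The gene windows added up to 235596 bp at the receptors, 126666 bp at the ligands and 77754 bp at the targets, so the receptors had the most room for such peaks.

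**Figure D3:**
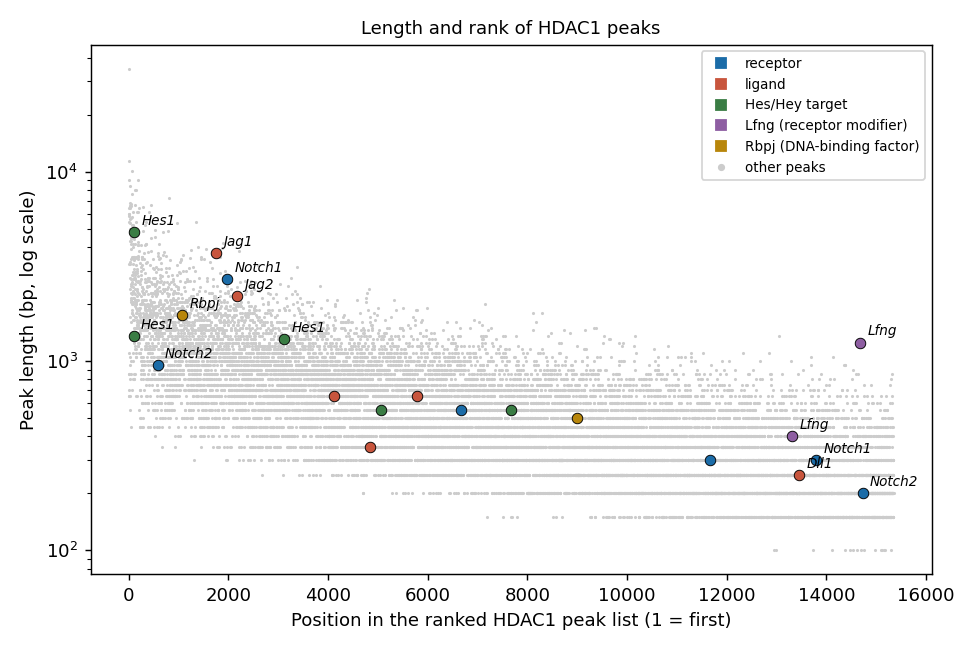
Length of every HDAC1 peak (bp, log scale) against its position in the ranked list, with the 21 peaks at Notch pathway genes coloured by role and the others in grey. Length falls along the list. The 4800 bp peak of Hes1 is at the upper left, and the 1250 bp peak of Lfng stands above all grey points of the last 1000 positions.

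For 13 of the 21 peaks the length was above the median of the 500 peaks nearest in rank, for 3 it was equal and for 5 it was below. The 4 peaks furthest toward the long side, by the share of neighbours at least as long, were those at the start sites of Lfng (0%), Jag1 (0.60%), Notch1 (1.60%) and Jag2 (3.60%). By the same measure 10.6% of its neighbours were as long as the 4800 bp peak of Hes1, since long peaks are common at the head of the list. The 5 peaks below their neighbours' median were the upstream peak of Jag1, the promoter peak of Notch2, the first peaks of Hes1 and Hey1 and the start-site peak of Dll1. Of their neighbours, 90.4%, 76.4%, 74.6%, 64.6% and 62.6% were as long, in that order.

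Position and base composition went together in their medians, though not at every peak. The 14 peaks that reached into a start-site window had a median length of 1100 bp and a median position of 3152, while the 7 others had 300 bp and 13310. In the whole list 70.1% of peaks reached into such a window, with medians of 550 bp and 6369, and the others had 300 bp and 10285.5. Median GC content was 63.5% at the 14 Notch gene peaks near start sites and 49.1% at the 7 others, beside 65.4% and 52.5% in the list. The ratio of observed to expected CpG, which is high in the CpG islands of many promoters, had medians of 0.77 and 0.22, beside 0.82 and 0.37. Among the 7, the third Hes1 peak had the highest GC content (66.6%), CpG ratio (0.65) and rank (position 3121). The Lfng peak among the 7 had 61% GC. Of the 14, the 4800 bp Hes1 peak over the coding TSS had the lowest GC content, 49.8%.

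The intronic peaks of the receptors were poor in CpG, with ratios of 0.06 at Notch1 and 0.31, 0.09 and 0.15 at Notch2. This was not particular to the receptors, since the Lfng peak outside the start-site window had 0.22. The peaks of Dll1 and Hes1 outside their start-site windows had 0.59 and 0.65. RefSeq marks as repeats 31% of the bases of the Notch1 intronic peak and 47.5% of the 200 bp peak of Notch2, and 13.3% and 13.8% of the other intronic Notch2 peaks. Peaks outside start-site windows had a median of 7.20% repeats in the list. Peaks of more than 50% repeat were rare there, 0.297% in start-site windows and 2.53% outside them, and the 21 Notch gene peaks held none. The part of repeats in the calling of these peaks was not tested.

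**Figure D4:**
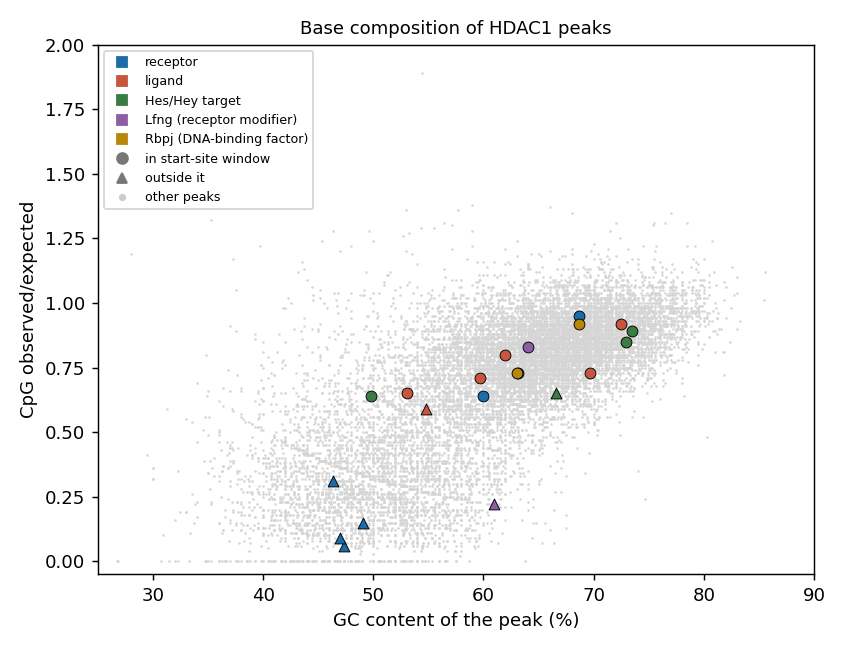
Ratio of observed to expected CpG against GC content (%) for each HDAC1 peak, with the 21 Notch gene peaks coloured by role and the others in grey. Circles reach into a start-site window and triangles do not. The triangles of the receptors sit between 0.06 and 0.31 on the CpG axis, and that of Lfng is at 0.22. These triangles lie below the 14 coloured circles, of which the lowest is at 0.64.

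The motif GTGNGAA matched 21 times in 11 of the 21 peaks, with 6 matches in the 4800 bp peak of Hes1 and 4 in the 3700 bp peak of Jag1. Of all peaks in the list 22.3% held a match, but the Notch gene peaks were longer, with a median of 650 against 450 bp. Matches per kb were 0.832, against 0.441 over all 15347 peaks, and 0.787 without the Hes1 peaks. TGGGAA gave 1.43 matches per kb against 0.781. The motifs of Hes and Hey proteins were nearer to the list, with 0.317 against 0.267 per kb for the E box CACGTG and 1.90 against 1.78 per kb for the N box CACNAG. The core of the GLI site, CCACCCA, gave 0.317 against 0.290 per kb. Matches are short letter runs on either strand that also depend on base composition, and they do not show that a factor was bound.

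Notch target promoters are known for pairs of RBPJ sites that face each other. A pair was taken as GTGNGAA followed on the other strand by a second match after 15 to 17 letters. Only 5 peaks of the list held such a pair (0.0326%), and the peak of 4800 bp at Hes1 was the highest-ranked of them, with the pair 52 bp upstream of the coding TSS and 16 letters between the sites. None of the other 20 Notch gene peaks held a pair.

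In the promoter windows, GTGNGAA matched in 2 of 10 entries, those of Lfng and Hey2, and in 14.2% of all 32851 promoters of the same length. The Hey2 promoter held 2 matches, on opposite strands as printed above, and none of its 300 bases lay under an HDAC1 peak. All 300 bases of the Lfng promoter lay under the peak at position 14681, with 1 match to GTGNGAA and 2 to the shorter core. In Rbpj, TGGGAA alone matched in both overlapping entries, which lay wholly under the peak at position 1071, and it was found in 25.6% of all promoters. No match to either form was in the Notch1, Notch2, Jag1, Jag2 and Dll1 entries. An absent match says only that these letters are not in that window.

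Other genes of the pathway were taken from a list of 39, and 33 of them had a peak in the window (84.6%, against 53.8% of protein-coding genes). A start-site peak was present at 30 of them (76.9%, against 43.9%) and a peak of the upper part of the list at 26 (66.7%, against 38.3%). These genes were not drawn at random either, so none of these shares is evidence of an excess. Their windows ran from 21449 bp (Hes5) to 439170 bp (Maml3), and long windows catch more peaks, with 64.2% against 43.3% as given above. Some of their peaks also covered a coding start site of another gene, such as Gps1 at Rfng and Copa at Ncstn. No peak was listed at Mfng, Poglut1, Hes2, Heyl, Psen2 and Numbl. Mfng encodes another Fringe enzyme, Psen2 a subunit of the protease that cleaves the receptor, and Heyl a relative of Hey1 and Hey2.

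Among the corepressor genes on that list, Spen, Ncor1, Tle1 and Tle3, whose products can act with RBPJ or with Hes proteins, each had a start-site peak. Their leading peaks stood between position 232, at Tle3, and position 1972, at Ncor1, and were 1900 to 2650 bp long. The Ncor1 peak also covered a coding start site of Pigl. Of all protein-coding genes, 12.1% had a peak at position 1971 or better in their window. The Mastermind genes Maml1, Maml2 and Maml3 had leading peaks at positions 3035, 7699 and 777. Fbxw7, whose product marks the Notch intracellular domain for degradation, had 1 peak of 2000 bp at position 614.

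Neither of the other ligand genes, Dll3 and Dll4, had a peak at its start site, whereas each of the 3 ligand genes described above did. The peak in the Dll3 window (650 bp, position 5273) covered a start site of Timm50, and Dll4 had peaks of 500 and 150 bp, of which the higher stood at position 12824. Of the other receptors, Notch3 had 2 peaks at its start site, the leading 1 at position 3793, and Notch4 had 4 peaks in its window, none of them at its start site. The leading Notch4 peak, of 1450 bp at position 3267, was near Pbx2, a neighbouring gene with a start site under a peak. Among the Hes genes Hes7 had the most peaks, 6, of which 3 reached into its start-site window, followed by Hes5 with 4. The 6 Hes7 peaks lay close together, all between 69120350 and 69124449, and were counted without merging. A coding start site of 9130213A22Rik also lay under a peak in the Hes7 window. The best position was 5139 in the Hes7 window and 3481 in that of Hes5, and no Hes or Hey gene other than Hes1 had a peak before position 3481.

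**Figure D5:**
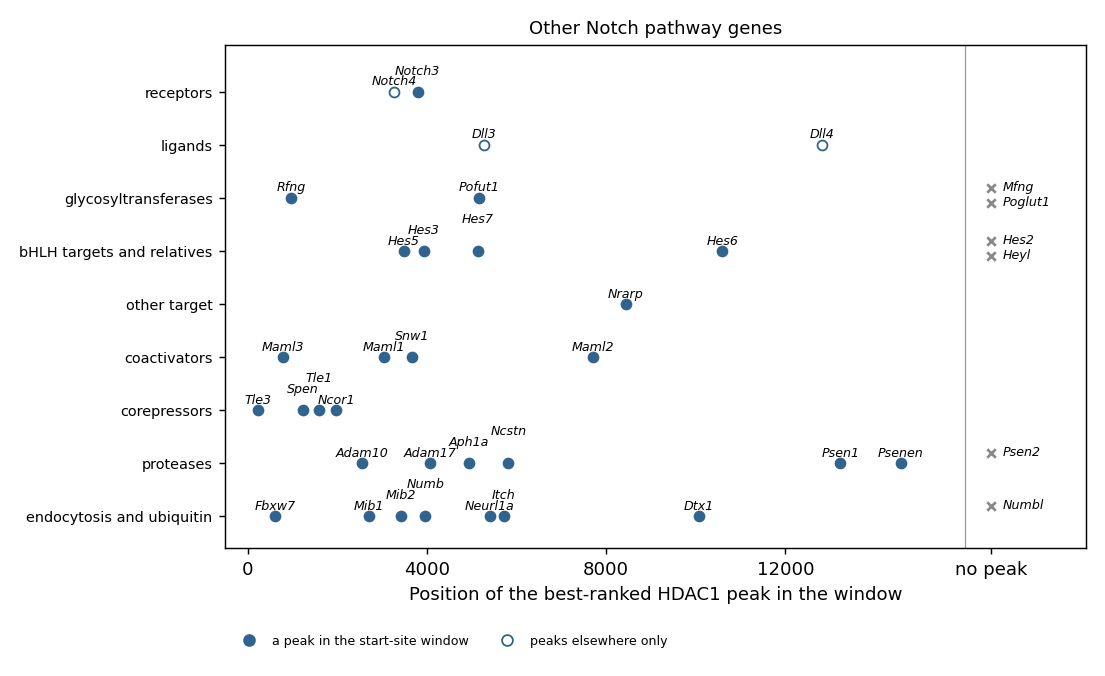
Position in the ranked list of the best HDAC1 peak in the window of 38 of the 39 other Notch pathway genes, by role. Filled points are genes with a peak in the start-site window, open points have peaks elsewhere only, and crosses are genes without a peak. The 4 corepressor genes drawn sit at positions up to 1972, and 6 genes have no peak.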

How the data were processed

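HDAC1 ChIP-seq was done on pooled limb buds in 4 HDAC1 ChIP samples and 3 inputs. The authors called peaks with CisGenome and deposited a single file of coordinates (mm10), taken to be in their rank order. Bowtie2 2.2.5 is named in the submitters' processing notes, without a role. The deposited columns are coordinates in bp, not counts or a signal, so depth and replicate error per peak are unknown and weak sites can fall below the threshold. The paper also lists a log2 fold change and a false discovery rate for each HDAC1 peak, which were not used here.

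Peaks were read as 1-based with both ends included, and every peak lay within the GRCm38 chromosomes. Peak lengths go in steps of 50 bp, so distances below that are finer than the peak edges can resolve. Short gaps between peaks span only a few such steps. Gene bodies, exons and start sites came from the GENCODE M21 basic annotation, without the mitochondrial genes. Noncoding exon means exon bases outside coding sequence, and intron means all other bases within the annotated gene body. Base composition, repeats (lower-case bases) and motifs were read from the RefSeq GRCm38.p6 genome, and promoters from a RefSeq table of 32851 entries. The 10 genes, the list of 39 and all settings were chosen with earlier results of these data known. Named were the 10 genes, genes whose start sites lay under their peaks, and, of the 39, those without a peak and the 3 with most peaks or best ranks, except for an item that is not reported here. Other genes named were chosen after their values were seen. Overlap counts matched a direct count for 2000 of 2000 simulated intervals. Python 3.11.15, numpy 2.4.6, pysam 0.24.0 and matplotlib 3.10.9 were used. Alternatives covered the window, the overlap, the list, merging and the start sites.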

Additional observations from a re-analysis of the deposited data

How the results depend on the processing

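Of 35 recomputed values, 30 stayed within 1.5 times of the value given. Within the first 7673 positions, 3 of the 6 receptor peaks were left. Target peaks numbered 3 in place of 5 with nothing added to the gene body and 2 after merging across gaps of up to 1000 bp. Merging joined the 3 Hes1 peaks into 1 region of 7750 bp and those of Hey1 into 1 of 1300 bp, and it raised the median length over the 10 genes from 650 to 1250 bp. After merging, the receptors, ligands and targets had 6, 4 and 2 peaks, so the targets still had the fewest. Within the first 7673 positions the numbers were 3, 5 and 5, and the receptors had the fewest. The order of the groups by number of peaks thus depends on the part of the list that is counted. The number of genes with a peak was between 8, within the first 7673 positions, and 10, with 50 kb added, when Hey2 gained the peak near Ncoa7. Without the Hes1 peaks, a setting chosen after seeing the data, 18 peaks with a median of 550 bp were left. The mean of covered bases per target gene then fell from 2850 to 550 bp.

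No paired analysis was possible because peaks carry no value of any single sample, so that leaving out replicates could not be done either. Depth per peak is not given, so how near Hey2 or the 6 other genes without a peak lie to the threshold cannot be read from it.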

Other observations

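Some neighbouring peaks at the Notch genes lay close together. Of the 12 gaps between neighbouring peaks of a gene, 6 were at most 200 bp long, at Jag1, Dll1, Hes1, Hey1 and Rbpj. The whole list of 15347 peaks held 1822 such gaps, the smallest of 50 bp. That number covers neighbouring peaks anywhere on a chromosome, and no share per gene window was computed over all genes. The 6 of 12 can therefore not be called particular to the Notch genes. A coding start site fell in a short gap at Hey1 and at Rbpj. Of the 41408 distinct coding start sites, 248 (0.599%) lay in a gap of at most 200 bp between peaks and 12209 (29.5%) lay under a peak. Their cause was not tested.

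Peaks just outside the windows were few. The nearest to a gene body was a peak of 300 bp at position 3516, 11.9 kb past the 3' end of Notch1 and within 1 kb of starts of Sec16a and 0610009E02Rik. At the other genes the nearest peak outside the window lay 20.5 kb (Jag2) to 145 kb (Notch2) from the gene body. Inside the windows but outside the gene bodies lay 4 peaks, from 44 bp (Hey1) to 3478 bp (Dll1) beyond the annotated gene.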
